A study of Sus scrofa with 28 samples.

Results

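Working muscle meets its energy demand from 2 main fuels. Glucose and its store glycogen are split by glycolysis to pyruvate, and fatty acids are activated, carried into the mitochondrion and cut by β-oxidation, with both routes ending in acetyl-CoA for the citrate cycle. The pyruvate dehydrogenase complex is the gate between them, and its kinases close that gate when fatty acids are burnt. Suckling piglets live on fat-rich milk, and loin is a muscle with many fast, glycolytic fibres.

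The enzymes of these routes were described in loin muscle (Longissimus dorsi) of piglets at 28 days of age. A total of 28 males were sampled, 14 crossbred (DU×IB, Duroc sires and Iberian dams) and 14 purebred Iberian (IB, Iberian sires and dams), all suckled by their mothers until slaughter at weaning. Each piglet's RNA had its own porcine genome array. The piglets of a type include littermates, with fewer crossbred than purebred litters, so that p-values take littermates as independent. Members were the probe sets whose gene symbol begins with one of a fixed set of enzyme stems, from the acyl-CoA dehydrogenases (ACAD) and the carnitine palmitoyltransferases to the hexokinases, enolases, glycogen phosphorylases and peroxins. This gave 32 probe sets of 27 genes, out of 5226 probe sets and 2117 named genes in the table. They comprise 15 for mitochondrial fatty acid oxidation, 1 for the peroxisome, 3 for the citrate cycle, 3 for the pyruvate gate, 3 for glycolysis and 7 for glycogen. No member belongs to the hexokinases, the phosphofructokinases or muscle creatine kinase, which were not analysed here. The table holds only probe sets that vary over the arrays, so that the 32 are the variable part of these pathways and not all of it. Levels are log2 values, differences are DU×IB minus IB on the log2 scale, and in whole muscle fewer cells of a type and less RNA per cell cannot be told apart.

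The arrays were hybridized in 2 series of 16 and 12, which the labels do not identify and which the bacterial spike-in controls separate. These controls averaged between 8.93 and 9.68 on 16 arrays (8 of each genetic type) and between 6.19 and 7.01 on the other 12 (6 of each). Array medians ran from 6.24 to 7.05 in DU×IB and from 6.01 to 7.02 in IB. The precision of a difference depends on the number of arrays and on the spread among piglets. IB replicate 3 stood apart, with the lowest array median and the lowest value of all piglets in 27.2% of the probe sets, 9 of the 32 members among them. Genetic types were compared with limma, with the series as a block, two-sided, and p-values were adjusted by Benjamini-Hochberg across the whole table of 5226. An adjusted p under 0.10 was the threshold. By this rule 145 probe sets passed, which is 2.77% of those tested, 108 of them higher (2.07%) and 37 lower (0.708%) in DU×IB.

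Of the 32 members, 1 passed, a probe set of ACADSB that was higher in DU×IB, beside the 2.77% of all probe sets (2.07% higher). This probe set is a member only through the symbol in the study's list of probe sets, which was chosen on these arrays, so that its passing is no result about the members. Of the 31 members named by the array annotation, 0 passed in limma and 2 had an unadjusted p under 0.05. Without the series term no member passed (0.995% of all probe sets), in the series of 16 alone none did (0.172%), and in the series of 12 alone 1 did (4.38%). At an unadjusted p under 0.05 there was 1 member in the series of 16 (4.42% of all probe sets) and there were 6 in the series of 12 (21.2%). Of the members' differences 20 were above and 12 below 0 (62.5% above, against 52.5% of all probe sets). They ran from -0.42 to 0.57, with a median of 0.058, beside a median of 0.016 over all probe sets. At an unadjusted p under 0.05 there were 3 members, against 13.8% of all probe sets at that level, so that the share among the members was not above the background. No member had genetic types that did not overlap. The 95% interval of the difference lay within a 2-fold change either way for 28 of the 32, and for 18 of them within a 1.5-fold change. For the other members the arrays leave room for larger differences. As the intervals take littermates as independent, they can be too narrow, and larger differences are not excluded for the 28 either. Overlap and intervals were not counted over all probe sets. They therefore show nothing particular to the members.

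**Figure D1:**
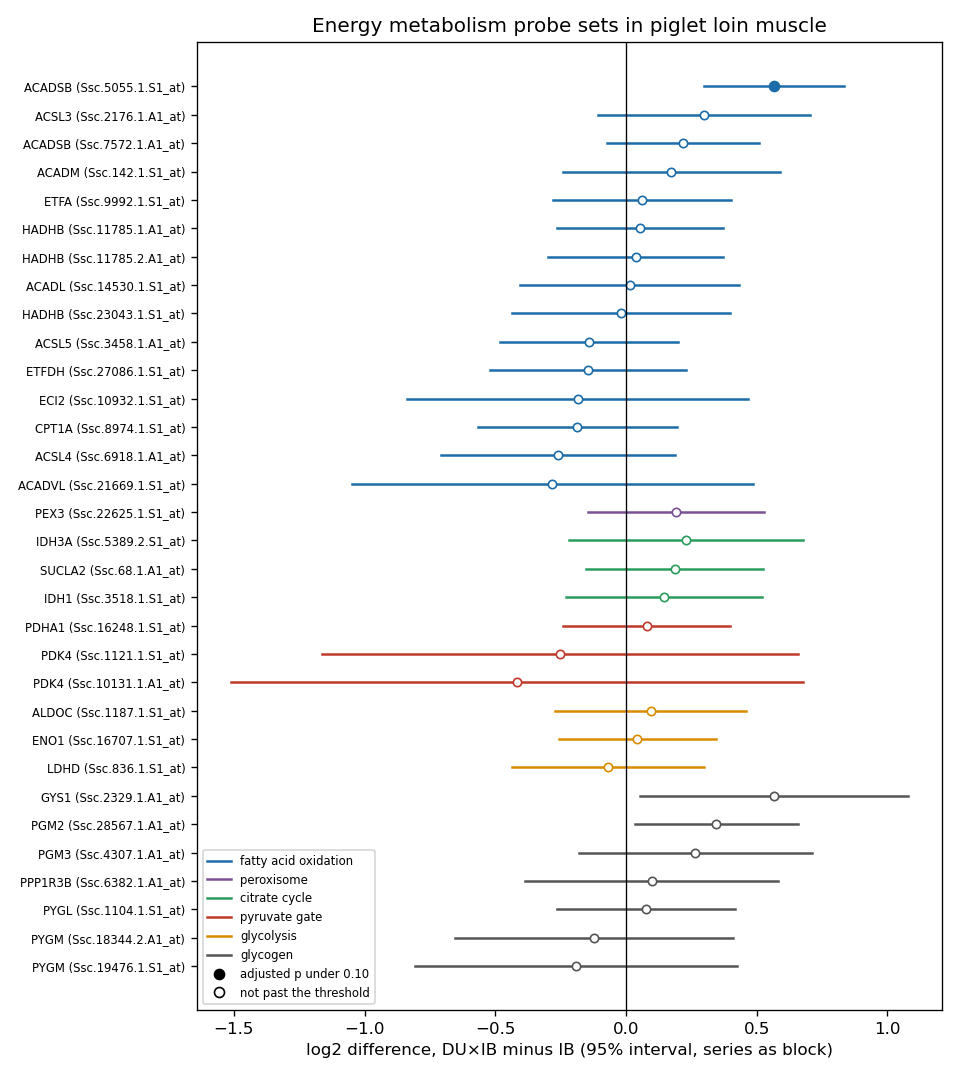
Log2 differences of the 32 member probe sets, DU×IB minus IB, on the horizontal axis, with 95% intervals from limma with the series as a block, grouped and coloured by role. One ACADSB probe set (0.57) passed the threshold and has a filled point, and the widest intervals are those of the PDK4 probe sets.

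ACADSB is a mitochondrial acyl-CoA dehydrogenase for short branched chains, an enzyme of isoleucine breakdown more than of ordinary fat. Its probe set Ssc.5055.1.S1_at ran from 7.03 to 8.16 (median 7.66) in DU×IB and from 6.37 to 7.77 (median 7.05) in IB. In all, 13 of 14 DU×IB piglets lay above the IB median, although the ranges overlap. Means were 7.63 ± 0.34 in DU×IB and 7.06 ± 0.46 in IB (SD, n = 14 each), a 1.48-fold difference (log2 difference 0.57, SE 0.13, limma adjusted p = 0.0202). The difference was 0.59 in the series of 16 and 0.53 in the series of 12, and in each series every DU×IB piglet exceeded the IB median of that series. The call rests on the series block, since without it the same difference had an adjusted p of 0.187, and it was not reached within either series alone (limma adjusted p = 0.585 and 0.122). As its symbol comes from the study's own list, neither the call nor the direction is independent evidence.

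A second ACADSB probe set, Ssc.7572.1.A1_at, is named by the array annotation. It ran from 9.41 to 11.0 (median 10.23) in DU×IB and from 9.29 to 10.85 (median 10.21) in IB. The 2 genetic types overlapped over nearly their whole range, and 8 of 14 DU×IB piglets exceeded the IB median. Its difference was 0.22 (SE 0.14, 95% interval -0.072 to 0.51, limma adjusted p = 0.547), 0.055 in the series of 16 and 0.44 in the series of 12. Whether the probe sets differ from each other was not tested.

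The straight-chain acyl-CoA dehydrogenases, which take the first step of β-oxidation on fatty acids of different length, did not pass. ACADM, the medium-chain enzyme, ran from 12.24 to 13.96 (median 13.29) in DU×IB and from 11.15 to 13.81 (median 13.53) in IB. The IB piglets reached lower, and the difference of the means was 0.17 (SE 0.20, adjusted p = 0.789). ACADL, the long-chain enzyme, differed by 0.014 (95% interval -0.40 to 0.43). ACADVL, the very-long-chain enzyme of the inner membrane, ran from 3.50 to 6.66 (median 6.03) in DU×IB and from 3.47 to 7.70 (median 6.20) in IB. Its piglets of both types spread over 4.22 log2 units in all, and the difference of -0.28 (SE 0.38, limma adjusted p = 0.826) lay well inside that spread. It was -0.60 in the series of 16 and 0.15 in the series of 12, so that its sign was not the same in both.

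HADHB, the thiolase subunit of the mitochondrial trifunctional protein, has 3 probe sets, with differences of 0.055, 0.038 and -0.019. Their intervals lay between -0.44 and 0.40 on the log2 scale, and the 3 gave no difference in either direction past the threshold. ETFA and ETFDH carry the electrons of the dehydrogenases to the respiratory chain, and differed by 0.062 and -0.15. ECI2, an isomerase for unsaturated fatty acids, differed by -0.19 with an SE of 0.32.

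Fatty acids enter the pathway as CoA esters made by the long-chain acyl-CoA synthetases, of which 3 are members. ACSL3, found on lipid droplets and the endoplasmic reticulum, differed by 0.30 (SE 0.20, limma adjusted p = 0.56). ACSL4, which prefers arachidonate, differed by -0.26 (SE 0.22, adjusted p = 0.677), and ACSL5 by -0.14 (SE 0.17). For ACSL4 the difference was 0.043 in the series of 16 and -0.67 in the series of 12, where none of the 6 DU×IB piglets exceeded the IB median. CPT1A, the liver form of the transferase that admits fatty acids to the mitochondrion, ran from 6.27 to 8.38 (median 7.81) in DU×IB and from 7.21 to 9.51 (median 7.94) in IB, with a difference of -0.19 (SE 0.19, adjusted p = 0.736). PEX3, which brings membrane proteins to the peroxisome, ran from 5.66 to 7.78 (median 6.86) in DU×IB and from 5.37 to 7.68 (median 6.93) in IB, with a difference of 0.19 (SE 0.16, adjusted p = 0.686).

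All 3 members of the citrate cycle group had a small positive difference, and none passed. SUCLA2, the ADP-forming subunit of succinyl-CoA synthetase, ran from 11.15 to 13.23 (median 12.36) in DU×IB and from 10.62 to 13.04 (median 12.42) in IB. The medians lay on the other side from the means, whose difference was 0.19 (SE 0.17, limma adjusted p = 0.695). IDH3A, the catalytic subunit of the NAD-dependent isocitrate dehydrogenase of the cycle, ran from 7.60 to 9.53 (median 8.85) in DU×IB and from 7.02 to 9.49 (median 8.75) in IB, and differed by 0.23 (SE 0.22, adjusted p = 0.719). IDH1, its cytosolic counterpart that makes NADPH, differed by 0.15 (SE 0.18).

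At the pyruvate gate, PDK4 varied more among piglets than most other probe sets. PDK4 is the kinase that inactivates pyruvate dehydrogenase in fasting and on fat-rich diets. Its probe set Ssc.1121.1.S1_at ran from 12.0 to 15.19 (median 13.36) in DU×IB and from 10.03 to 15.04 (median 14.41) in IB, a 35.6-fold range over the 28 piglets. Ssc.10131.1.A1_at ran from 10.45 to 14.29 (median 12.02) in DU×IB and from 8.70 to 14.33 (median 13.51) in IB, a 49.4-fold range. The residual SD after genetic type and series was 1.28 for the first and 1.55 for the second, at the 98.1st and 99.0th percentiles of all probe sets. IB replicates 7 and 2 were the lowest of all piglets, at 10.03 and 10.97 for Ssc.1121.1.S1_at, and the next lowest was a DU×IB piglet at 12.0. DU×IB piglets fell into a lower and an upper range in the series of 16, with 5 between 12.0 and 13.36 and 3 between 14.65 and 14.90. Such ranges were seen after the values were known and were given no test.

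The genetic types could not be told apart by PDK4. The difference was -0.25 (SE 0.45, 95% interval -1.16 to 0.66, limma adjusted p = 0.875) for Ssc.1121.1.S1_at and -0.42 (SE 0.54, 95% interval -1.51 to 0.68, adjusted p = 0.813) for Ssc.10131.1.A1_at. The interval leaves room for a more than 2-fold lower level in DU×IB. It was -0.037 in the series of 16 and -0.54 in the series of 12 for the first probe set. PDHA1, the catalytic subunit that PDK4 phosphorylates, ran from 9.07 to 10.82 (median 9.91) in DU×IB and from 8.94 to 10.49 (median 9.76) in IB, with a difference of 0.078 (SE 0.16, adjusted p = 0.887).

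**Figure D2:**
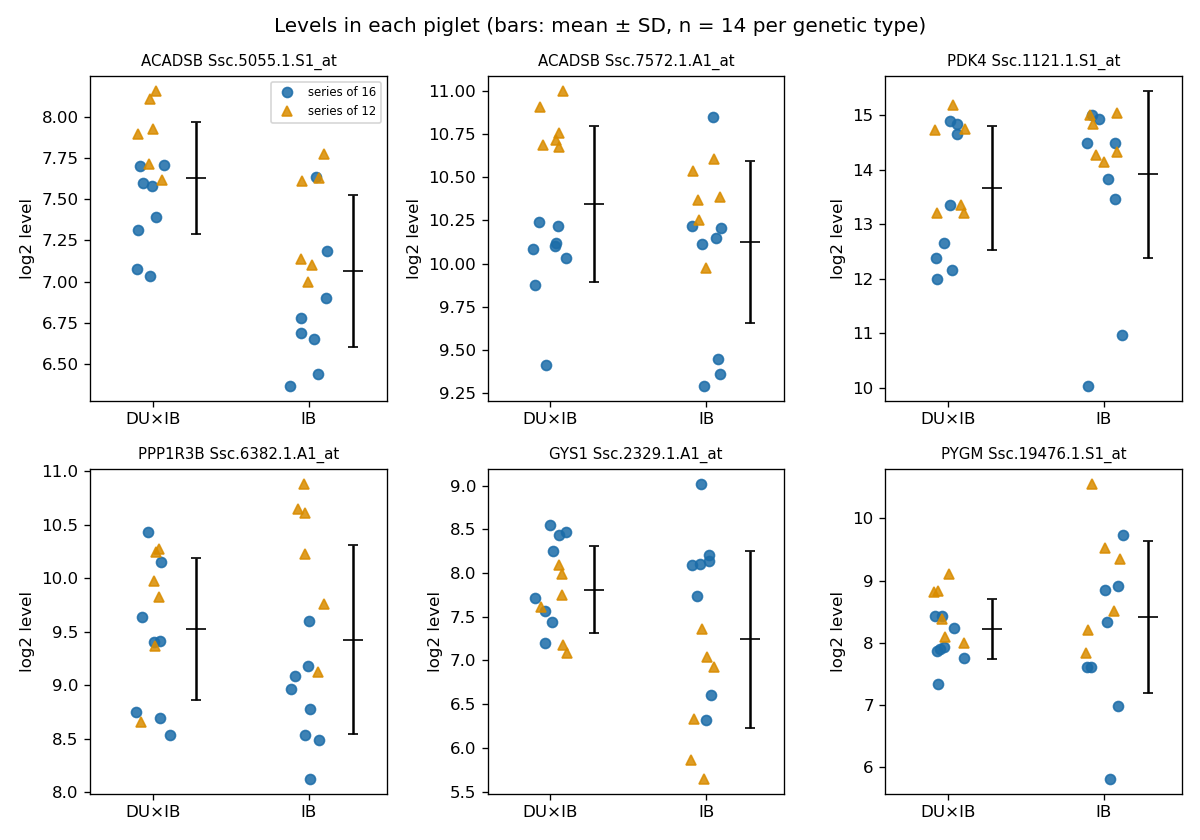
Log2 levels of 6 member probe sets in each piglet, DU×IB left and IB right, with circles for the series of 16, triangles for the series of 12 and bars for the mean ± SD of 14 piglets. The genetic types overlap in every panel, 13 of 14 DU×IB piglets lie above the IB median for ACADSB Ssc.5055.1.S1_at, and PDK4 spreads from 10.03 to 15.19.

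Of the glycolytic members, none passed. ENO1, the enolase of most tissues, ran from 9.60 to 11.31 (median 10.67) in DU×IB and from 9.15 to 11.47 (median 10.66) in IB, with a difference of 0.043 (SE 0.15, 95% interval -0.26 to 0.34). Its medians differed by less than any spread within a type. ALDOC, the aldolase of brain, differed by 0.094 (SE 0.18). LDHD, a mitochondrial enzyme that oxidizes D-lactate and not the usual L form, ran from 5.45 to 7.22 (median 6.45) in DU×IB and from 5.26 to 7.16 (median 6.46) in IB, with a difference of -0.069 (SE 0.18, limma adjusted p = 0.925). It was -0.42 in the series of 16 and 0.40 in the series of 12.

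The glycogen group, whose members were placed in it by symbol, held the other 2 members with an unadjusted p under 0.05, GYS1 and PGM2. Both were higher on average in DU×IB and neither was past the threshold. GYS1, the glycogen synthase of muscle, ran from 7.08 to 8.55 (median 7.73) in DU×IB and from 5.65 to 9.02 (median 7.20) in IB, so that IB piglets stood both above and below the whole DU×IB range. Means were 7.81 ± 0.50 in DU×IB and 7.24 ± 1.01 in IB (SD, n = 14 each), with a difference of 0.57 (SE 0.25, limma adjusted p = 0.306). The series gave different values. The difference was 0.18 in the series of 16, with 4 of 8 DU×IB piglets above the IB median, and 1.09 in the series of 12, with 6 of 6 above it (limma adjusted p = 0.0935 within that series, 4.38% of all probe sets called there). The test of that contrast between series had an adjusted p of 0.781 (limma interaction), so that the series were not shown to differ.

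PGM2, a phosphomutase of pentose and glucose phosphates, ran from 5.12 to 6.43 (median 5.55) in DU×IB and from 4.43 to 6.18 (median 5.40) in IB. In 11 of 14 DU×IB piglets the level exceeded the IB median, and the difference was 0.35 (SE 0.15, limma adjusted p = 0.304). PGM3, which belongs to the synthesis of amino sugars and not to glycogen, came in by its symbol and differed by 0.26 (SE 0.22). PPP1R3B, which tethers protein phosphatase to glycogen and so favours glycogen synthase, ran from 8.54 to 10.43 (median 9.52) in DU×IB and from 8.12 to 10.88 (median 9.15) in IB. Its difference of 0.098 (SE 0.24, adjusted p = 0.918) joined 0.53 in the series of 16 and -0.48 in the series of 12.

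The phosphorylases, which release glucose phosphate from glycogen, did not pass either. PYGM, the muscle form that is absent in McArdle disease, has 2 probe sets. Ssc.19476.1.S1_at ran from 7.35 to 9.11 (median 8.16) in DU×IB and from 5.82 to 10.55 (median 8.43) in IB, and Ssc.18344.2.A1_at from 7.94 to 9.78 (median 8.83) in DU×IB and from 7.65 to 10.58 (median 8.99) in IB. The IB range enclosed the DU×IB range on both, and the differences were -0.19 (SE 0.30, limma adjusted p = 0.857) and -0.12 (SE 0.26, adjusted p = 0.898). PYGL, the liver form, differed by 0.075 (SE 0.17), with -0.23 in the series of 16 and 0.48 in the series of 12.

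Spread among piglets set several members apart more than genetic type did. The residual SD of 5 members lay above the 90th percentile of all probe sets, and besides PDK4 these were ACADVL (1.08), ECI2 (0.91) and PYGM Ssc.19476.1.S1_at (0.85). At the other end ACADSB Ssc.5055.1.S1_at had a residual SD of 0.32, at the 7.48th percentile. The median over members was 0.49, as it was over all probe sets.

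**Figure D3:**
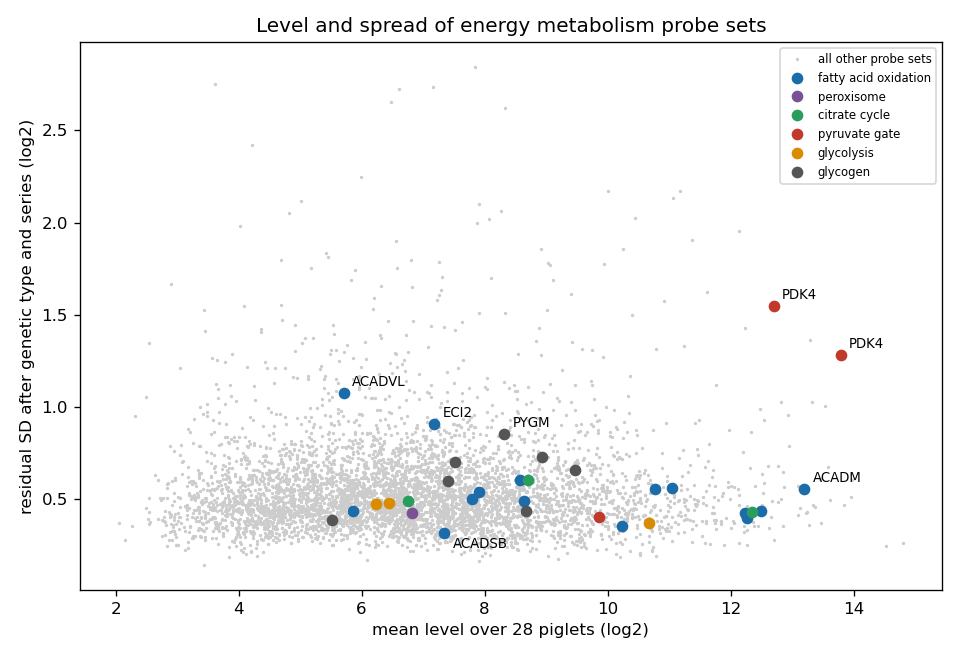
Residual SD after genetic type and series against the mean log2 level over 28 piglets, with the 32 members coloured by role and all other probe sets in grey. Both PDK4 probe sets (SD 1.28 and 1.55) lie far above the members around them, and levels of different probe sets are not comparable as amounts of RNA.

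DU×IB piglets were more alike than IB piglets in 28 of 32 members, by the SD within genetic type and series (median 0.38 in DU×IB and 0.56 in IB). The same held for 76.4% of all probe sets, so that most of this is not particular to the members. The widest contrast was that of PYGM Ssc.19476.1.S1_at, with an SD of 0.40 in DU×IB and 1.15 in IB, and LDHD had the reverse, 0.51 in DU×IB and 0.36 in IB. The count was 26 of 32 without IB replicate 3 (62.7% of all probe sets), 29 of 32 in the series of 16 (74.6% of all probe sets) and 18 of 32 in the series of 12 (58.3% of all probe sets). The crossbred piglets came from fewer litters, and the part of litter in this was not tested. The comparison of SDs was chosen after the values were seen and carries no test.

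Across piglets, PDK4 was set against the 30 member probe sets of other genes, with the means of genetic type and series removed. The PDK4 probe set of higher mean was taken (Ssc.1121.1.S1_at), and the other one followed it with r = 0.991. PPP1R3B was lower in piglets with more PDK4 (Pearson r = -0.50, permutation p = 0.00435, adjusted p = 0.0699, Spearman rho = -0.57, permutation p = 0.00176, adjusted p = 0.0286), with adjustment over the 5224 probe sets other than PDK4. Without the 2 piglets farthest from the PDK4 median, IB replicates 7 and 2, r was -0.60 (permutation p = 0.00076). Within the series r was -0.51 over 16 piglets (permutation p = 0.0334) and -0.59 over 12 (permutation p = 0.0413). The relation had the same sign in both genetic types, with r = -0.70 in DU×IB and -0.33 in IB.

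PDHA1 was higher in piglets with more PDK4 (r = 0.61, permutation p = 0.00551, adjusted p = 0.082, rho = 0.51, permutation p = 0.0132, adjusted p = 0.105). Here the 2 farthest piglets mattered, since without them r was 0.40 (permutation p = 0.0901), so that the relation was weaker and not clear without them. By genetic type r was 0.42 in DU×IB, which does not hold these piglets, and 0.73 in IB, which does. Within the series r was 0.66 over 16 piglets (permutation p = 0.0133) and 0.42 over 12 (permutation p = 0.258). ACADSB Ssc.7572.1.A1_at (r = 0.58, permutation p = 0.0134, adjusted p = 0.139, rho = 0.61, permutation p = 0.00193, adjusted p = 0.03) and HADHB Ssc.11785.2.A1_at (r = 0.57, permutation p = 0.0148, adjusted p = 0.148, rho = 0.52, permutation p = 0.00844, adjusted p = 0.079) came next. Without the 2 farthest piglets these were 0.40 (permutation p = 0.0384) and 0.38 (permutation p = 0.0746). The other ACADSB probe set, Ssc.5055.1.S1_at, had r = 0.24 (permutation p = 0.326). The other HADHB probe sets had r = 0.48 (permutation p = 0.0577) and 0.40 (permutation p = 0.14). PGM2 followed (r = 0.50, permutation p = 0.0255, adjusted p = 0.2, rho = 0.51, permutation p = 0.00633, adjusted p = 0.0661), with r = 0.46 without the 2 farthest piglets (permutation p = 0.0099). Within the series r for PGM2 was 0.42 over 16 piglets (permutation p = 0.187) and 0.86 over 12 (permutation p = 1e-05, the smallest these permutations can give). IDH1 was lower in piglets with more PDK4 (r = -0.43, permutation p = 0.0342, adjusted p = 0.23), with r = -0.30 without the 2 farthest piglets (permutation p = 0.127). Leaving out IB replicate 3 instead, r was -0.50 for PPP1R3B and 0.61 for PDHA1. Of the 30 relations 21 were positive (70.0%, against 56.7% of all other probe sets). By Pearson's r 2 passed an adjusted p under 0.10 (6.67%, against 7.83% of all), and by Spearman's rho 4 did (13.3%, against 12.1% of all). The members were therefore called with PDK4 at about the rate of the whole table.

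**Figure D4:**
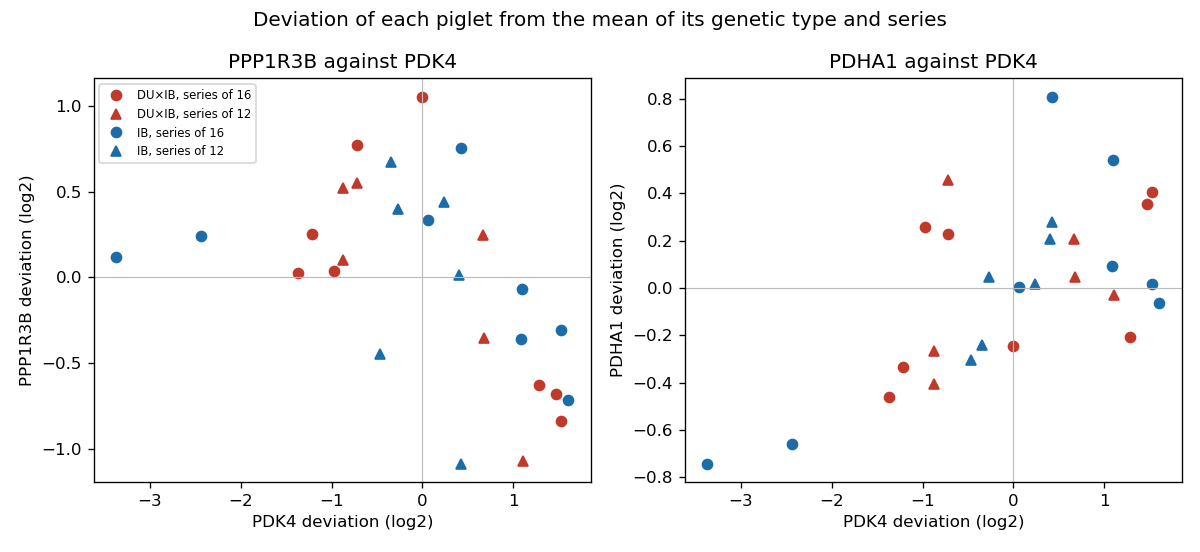
Deviation of each piglet from the mean of its genetic type and series, for PPP1R3B (left) and PDHA1 (right) against PDK4 Ssc.1121.1.S1_at, all in log2 units, with colour for genetic type and symbol for series. PPP1R3B falls with PDK4 (r = -0.50), and for PDHA1 (r = 0.61) the 2 IB piglets at the far left lie lowest.

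The hybridization series moved the members more than genetic type did. Between the series 26 of 32 members differed (limma, series of 12 minus series of 16, adjusted p under 0.10), beside 80.1% of all probe sets. In the series of 12, 22 members were higher (68.8%, against 57.3% of all probe sets) and 4 lower (12.5%, against 22.7%). The shift was 1.36 for ACSL4 and 1.09 for PEX3, and -0.97 for ENO1 and -0.79 for GYS1. A difference between genetic types had the same sign in both series for 14 members and opposite signs for 18. These signs were not counted over all probe sets. The interaction of genetic type with series passed for none of the members or of all probe sets in limma, with 3 members at an unadjusted p under 0.05 (LDHD, PYGL and PPP1R3B) beside 6.37% of all probe sets.

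Neighbouring genes of the same pathways were read from a list of 100, of which 32 have a probe set (37 in all). ME3, the mitochondrial malic enzyme that turns malate to pyruvate, was the 1 that passed, and none was lower. That is 2.70% of the 37, beside 2.77% of all probe sets, and 20 had a positive and 17 a negative difference. ME3 ran from 7.11 to 8.28 (median 7.68) in DU×IB and from 6.54 to 8.66 (median 7.16) in IB, and 13 of 14 DU×IB values exceeded the median of IB. DU×IB minus IB was 0.58 (SE 0.16, limma adjusted p = 0.0588), with 0.49 in the series of 16 and 0.71 in the series of 12. The call was lost without the series block (adjusted p = 0.221). Another 3 had a positive and 2 a negative difference at an unadjusted p under 0.05, which with ME3 makes 16.2% of the 37, beside 13.8% of all probe sets. SLC16A3, which exports lactate from glycolytic fibres, averaged 9.04 ± 0.89 in DU×IB and 8.00 ± 1.29 in IB (SD, n = 14 each), with a difference of 1.04 (SE 0.34, adjusted p = 0.132). PRKAA2, a catalytic subunit of AMP-activated kinase, differed by 0.39 (SE 0.17, adjusted p = 0.304), and CKB, the brain creatine kinase, by 0.30 (SE 0.13, adjusted p = 0.3). On the other side stood STBD1, a glycogen-binding protein, with -0.40 (SE 0.16, adjusted p = 0.217), and 1 of 2 probe sets of GPD2, the mitochondrial glycerol phosphate dehydrogenase, with -0.65 (SE 0.25, adjusted p = 0.205). For STBD1 the difference was -0.095 in the series of 16 and -0.80 in the series of 12, and for this GPD2 probe set -0.072 and -1.41. In the series of 16 every value of this GPD2 probe set lay under 4 (highest 3.86 in DU×IB and 3.92 in IB). Its -0.072 is therefore a difference between low values. The series were not shown to differ (limma interaction, adjusted p = 0.714 for STBD1 and 0.685 for GPD2).

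Markers of fibre types and other cells bear on whole muscle. None of 7 defining markers of the muscle fibre has a probe set that was analysed here, so that the tissue label was checked only through ATP2A1, the calcium pump of fast fibres (probe set means of 12.19 and 6.38 in DU×IB and 12.29 and 6.65 in IB), and MYL3, a slow myosin light chain (13.31 in DU×IB and 12.95 in IB). Of 11 slow-fibre genes 4 were measured, 5 of their 6 probe sets had a positive difference, and the 2 of CASQ2 passed (0.95 and 0.97, limma adjusted p = 0.0887 and 0.0927). Both calls were lost without the series block (adjusted p = 0.407 and 0.175), and these differences were 0.17 and 0.47 in the series of 16 and 1.98 and 1.63 in the series of 12. Averaged over the 6 slow-fibre probe sets in each piglet, the level ran from 7.57 to 8.72 in DU×IB and from 6.72 to 8.33 in IB. The fibroblast gene COL1A1 was higher in DU×IB by 1.21 (adjusted p = 0.027, and 0.187 without the series block), and was the only one of 5 fibroblast genes measured. The study called both CASQ2 and COL1A1 on these same arrays, so that their passing is not independent evidence. All 5 probe sets of 4 macrophage genes had a negative difference (median -0.50) and none passed. Averaged over these 5 in each piglet, the level ran from 4.70 to 5.23 in DU×IB and from 4.77 to 7.10 in IB. Of 8 adipocyte genes only FABP4 (0.37) and CFD (-0.44) were measured, on opposite sides and not past the threshold. The part of these cells in the ACADSB result was not tested.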

How the data were processed

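RNA of 28 loin samples was hybridized to 1 Affymetrix porcine genome array each. The authors scanned the arrays with GCOS and deposited log2 values made with GCRMA in BRB-Array Tools (background corrected by probe sequence, quantile normalized, 1 value per probe set), after leaving out probe sets of little variation. All 5226 deposited probe sets met that filter when tested (over 20% of the values differing from the median by 1.5-fold or more). Symbols came from the study's list for 271 probe sets and from the array's annotation for 2257, and 2698 have none. Of the members, 1 was named by the study's list and 31 by the annotation.

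Genetic types were compared with limma (lmFit, eBayes) on all probe sets, controls included. The study's model includes the hybridization series. The labels give no series, so arrays were assigned to it by the mean of 10 bioB and bioC spike-in probe sets, at the largest gap. Full values are given for members with an adjusted p under 0.10 or an unadjusted p under 0.05, for those of highest mean and of largest residual SD in each role, and for further probe sets of these genes. Other members named with their ranges were chosen after their values were seen. Members, lists and tests were chosen with earlier results of these data known. Correlations used 100000 permutations within genetic type and series, and their background over the whole table was added after the values were seen. Alternatives were the fit without series, each series alone, array median centring, quantile normalization, array weights, the replicate block, eBayes with trend and robust options, dim probe sets (means under 4 in both types) or probe sets of several transcripts left out, an adjusted p under 0.05, and each piglet left out. Promoters were not analysed. Fits ran in limma 3.58.1 (R 4.3.3), permutations in numpy 2.4.6 with ranks from scipy 1.17.1, and figures and tables in matplotlib 3.10.9 and pandas 2.3.3 under Python 3.11.15.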

Additional observations from a re-analysis of the deposited data

How the results depend on the processing

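The count of all probe sets that passed, 145, became 52 without the series term, 9 in the series of 16, 229 in the series of 12, 276 with array weights and 80 at an adjusted p under 0.05, and between 103 and 221 as single piglets were left out, with 221 reached without IB replicate 4. The count of members, 1, was 0 without the series term and in the series of 16, and in the series of 12 the 1 member was GYS1 (1.09). ACADSB Ssc.5055.1.S1_at kept its direction in every alternative and passed in all but the fit without series and each series alone. As each piglet was left out, its difference ran from 0.53 to 0.63 (limma adjusted p = 0.00452 to 0.0423). Its symbol comes from the study's list, chosen on these same arrays, so that neither its direction nor its passing is independent evidence. The count of relations with PDK4 that passed with adjustment over the 30 relations, 2, was 0 with values adjusted for series only and 0 in the series of 16. It was 4 in the series of 12, with other probe sets (PGM2, ACADVL, PYGL and ACADSB Ssc.5055.1.S1_at), and 4 with array median centring, which added ACADSB Ssc.7572.1.A1_at and IDH1 to PPP1R3B and PDHA1. No share over all probe sets was computed for these settings, so that the counts are not a result about the members. The count of members more alike in DU×IB, 28, was 18 in the series of 12.

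Of 608 recomputed differences of 16 named probe sets, 10 turned their sign, all of them in members that did not pass. In the series of 16 these were ENO1 (-0.11) and PYGM (0.012 and 0.0097), in the series of 12 ACADVL (0.15), PPP1R3B (-0.48) and LDHD (0.40), and with array weights LDHD (0.0045). As each piglet was left out, ENO1 ran from -0.034 to 0.086, PPP1R3B from -0.0030 to 0.21 and LDHD from -0.16 to 0.016. The cause was not tested. With the replicate block 145 probe sets and 1 member passed. Only 2 of 14 pairs of equal number had a correlation of deviations above 0.1 and 1 of 14 DU×IB piglets correlated best with its own number, so that the piglets share a number only. The arrays give no depth, and ACADVL, GPD2, CKB and 1 of 2 probe sets of CASQ2, among the probe sets named with a difference, had values under 4 in some piglets. For GPD2 this held for every piglet of the series of 16. The macrophage genes CD163 and C1QA also had values under 4 in some piglets.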
